A study of Mus musculus with 9 samples.

Results

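Imprinted genes are read from only 1 parental copy, and neighbouring genes are often controlled together by a shared imprinting control region. Which copy of imprinted genes is read often depends on a mark of DNA methylation set in the egg or the sperm. Many of them act on fetal growth, on the balance between growth and differentiation of mesenchymal cells, and on metabolism, and many are active in embryonic fibroblasts and shut down after birth. The list of 36 imprinted genes described here was chosen with earlier results of these data known. Its genes were taken by symbol and grouped into 16 clusters by their place in the genome. Of the 36 genes, 32 had at least 1 probe set annotated to that gene alone, with 94 probe sets in all. Rtl1, Dio3, H19 and Zrsr1 had none and were left out of every count. For each gene the probe set with the highest mean signal over the 9 arrays was used, 1 of 18193 genes chosen in that way. Arrays of this kind sum the RNA of both parental copies, so they show the level of an imprinted gene but not which copy it came from.

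The RNA came from spontaneously immortalised fibroblasts of mouse embryos (E13.5), in 2 lines. The first line lacked Suv420h1 (Kmt5b), an enzyme that adds methyl groups to lysine 20 of histone H4. It was measured with the missing enzyme restored as a Suv420h1-GFP fusion (reconstituted, 1 array), and without the enzyme (null, 2 arrays: untransduced and with GFP). The second line was wild type and carried, by lentivirus, PREX2 truncated by a stop codon (K278*, E824* or Q1430*, 3 arrays), full-length PREX2 (1 array), or a control vector (GFP or LacZ, 2 arrays). PREX2 is an exchange factor that activates the GTPase Rac. The labels give no strain, no number of embryos and no clone for either line. The null genotype therefore cannot be told apart from the line it came in, and from whatever happened during that line's immortalisation. No construct was repeated within a group, and separate cultures are not mentioned for any of them. The p-values thus reflect the spread among these 9 arrays alone, which may be technical, and the small number of arrays limits the precision.

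All 17 fibroblast markers had a mean signal of at least 100, with a summed signal of 182573 to 197478 in the null line, against 184973 to 263125 in the wild-type line. Of these 17 markers, 2 fell in null cells against control vector and 15 did not pass (limma, adjusted p below 0.05). By the same rule 20.3% of all tested genes passed. The fibroblast surface marker Thy1 was near background in the null line (11.2 and 27.3 in the null cells, against 1097 and 3294 with control vector). None of the 4 germ-line markers and none of the 4 trophoblast markers reached a mean signal of 100. The summed trophoblast signal was higher on every null-line array (192 to 273) than on the wild-type-line arrays (63.4 to 124). That separation did not hold for the trophoblast markers Cdx2, Eomes and Elf5. In the null line they read 13.2 to 42.7, 49.8 to 64.4 and 11.8 to 27.1. In the wild-type line they read 5.74 to 41.1, 14.6 to 59.8 and 12.8 to 32.2. The separation of the sum thus rests on the remaining trophoblast marker, Tfap2c. The summed macrophage markers were 340 to 381 in the null line, against 517 to 715 in the wild-type line. The epithelial markers summed to 471 to 559, against 584 to 641. Not every marker in these sums was lower in the null line. Epcam read 255 to 432 there, against 162 to 301, and Cd68 90.3 to 130, against 85.0 to 133. The macrophage marker Csf1r was lower on every null-line array (198 to 206, against 294 to 544). Of 5 neural markers, summed signals were 133 to 326 in the null line and 880 to 2170 in the wild-type line. The part of these markers in the differences between the lines was not tested. For the deleted gene itself, 1 of 5 Kmt5b probe sets, picked with its values in view, was low at 8.85 and 17.3 in null cells, against 150.3 with the enzyme restored and 118 to 182 in the wild-type line. Its brightest probe set was not low (442 and 432 in null cells, 295 and 469.6 with control vector), and where each probe set lies relative to the deletion is not known here.

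Promoter sequences are given for 4 genes whose RNA differed between the lines, because in imprinted genes the CG dinucleotides near the start are where the parental methylation mark can lie. They come from RefSeq (GRCm38.p6), run from 250 bases before to 50 after an annotated start, and read 5′ to 3′ on the gene's strand, with each CG in capitals. The Peg3 window is at chr7:6730370-6730669 on the minus strand and holds 13 CGs, and it shares 263 of its 300 bases with the window of Usp29, which starts in the opposite direction. The Plagl1 window is at chr10:13090582-13090881 (plus strand, 26 CGs). For Meg3 and Mest only 1 of several windows is given, at chr12:109540746-109541045 (plus strand, 13 CGs) and chr6:30737800-30738099 (plus strand, 17 CGs).
Peg3: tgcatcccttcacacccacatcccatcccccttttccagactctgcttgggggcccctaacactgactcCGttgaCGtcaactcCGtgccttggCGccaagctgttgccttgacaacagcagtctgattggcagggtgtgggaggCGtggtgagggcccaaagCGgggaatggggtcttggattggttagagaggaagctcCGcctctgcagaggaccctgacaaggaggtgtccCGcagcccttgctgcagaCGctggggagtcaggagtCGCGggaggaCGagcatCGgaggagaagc
Plagl1: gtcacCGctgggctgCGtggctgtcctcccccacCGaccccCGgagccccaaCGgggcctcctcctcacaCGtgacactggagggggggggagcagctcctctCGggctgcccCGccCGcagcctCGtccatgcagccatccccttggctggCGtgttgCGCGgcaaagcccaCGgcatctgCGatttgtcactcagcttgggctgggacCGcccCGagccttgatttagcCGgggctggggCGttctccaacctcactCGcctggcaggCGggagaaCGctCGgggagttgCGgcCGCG
Meg3: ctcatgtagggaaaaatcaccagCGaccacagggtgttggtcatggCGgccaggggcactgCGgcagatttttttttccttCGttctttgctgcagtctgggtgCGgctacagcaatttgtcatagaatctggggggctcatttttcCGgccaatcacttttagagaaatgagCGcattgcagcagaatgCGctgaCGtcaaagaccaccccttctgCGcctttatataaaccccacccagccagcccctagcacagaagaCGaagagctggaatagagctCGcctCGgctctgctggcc
Mest: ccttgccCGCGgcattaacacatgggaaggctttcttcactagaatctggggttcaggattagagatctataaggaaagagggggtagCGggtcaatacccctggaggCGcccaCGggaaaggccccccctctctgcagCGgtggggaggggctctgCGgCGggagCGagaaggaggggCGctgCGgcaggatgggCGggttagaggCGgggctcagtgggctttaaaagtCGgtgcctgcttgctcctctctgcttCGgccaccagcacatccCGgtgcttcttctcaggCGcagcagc

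The letters TGCCGC, known as the core of the site bound by ZFP57, a zinc-finger protein that keeps imprints in place in the early embryo, were searched on both strands (TGCCGC or GCGGCA). They occurred once in the Plagl1 window (bases 161 to 166) and not in that of Peg3. In the windows shown they occurred once for Meg3 (bases 61 to 66) and 2 times for Mest (from bases 9 and 184). Those 2 windows were picked for the most GCGGCA matches and then the most CGs, so their matches follow from the choice. Another Meg3 window (1 CG) and another Mest window (8 CGs) held 0, and a further Mest window, from base 30737803, held 2. Over the 47 windows of the 29 listed genes that had one, 10 held the letters (21.3%), against 3813 of 32851 windows of all genes (11.6%). Windows of 1 gene can overlap, and the Mest windows from bases 30737800 and 30737803 are both among the 10. The median number of CGs was 13 in those 47 windows and 7 in all windows. A match is a match of letters and not a measured binding site, and these arrays measured no methylation.

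Null cells were first set against wild-type cells with a control vector, to ask which RNAs differ in the absence of Suv420h1. Most bright imprinted genes that differed were higher in the null line. Peg3, Dlk1, Asb4, Plagl1, Mest, Meg3, Kcnq1ot1, Ndn, Igf2r and Impact rose, and Slc38a4 and Nap1l4 fell. In all 10 genes rose, 2 fell and 7 did not pass, out of 19 with a mean signal of at least 100 (limma, Benjamini-Hochberg adjusted p below 0.05 over 19090 probe sets). The same rule called 20.3% of all 10177 tested genes, 10.2% higher and 10% lower (19.7% of all probe sets). The median log2 difference of signal + 25 was 0.71 over the 19 genes and -0.03 over all tested genes. Since the list was chosen with earlier results of these data known, these counts and this median are not independent of the data. In a second list of 49 imprinted genes, 7 of 25 tested members rose and 2 fell, with a median of 0.28. The other 13 genes with a probe set, at mean signals of 5.49 to 92.8, were too dim to be tested. Some of the 19 reached that level only through the null line (Asb4 and Kcnq1ot1), so the counts describe the bright genes and not all 32. With no filter 11 of 32 passed, with 7.55% of all probe sets called, and with only the compared groups in the fit 9 of 19 passed, with 9.61% called.

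**Figure D1:**
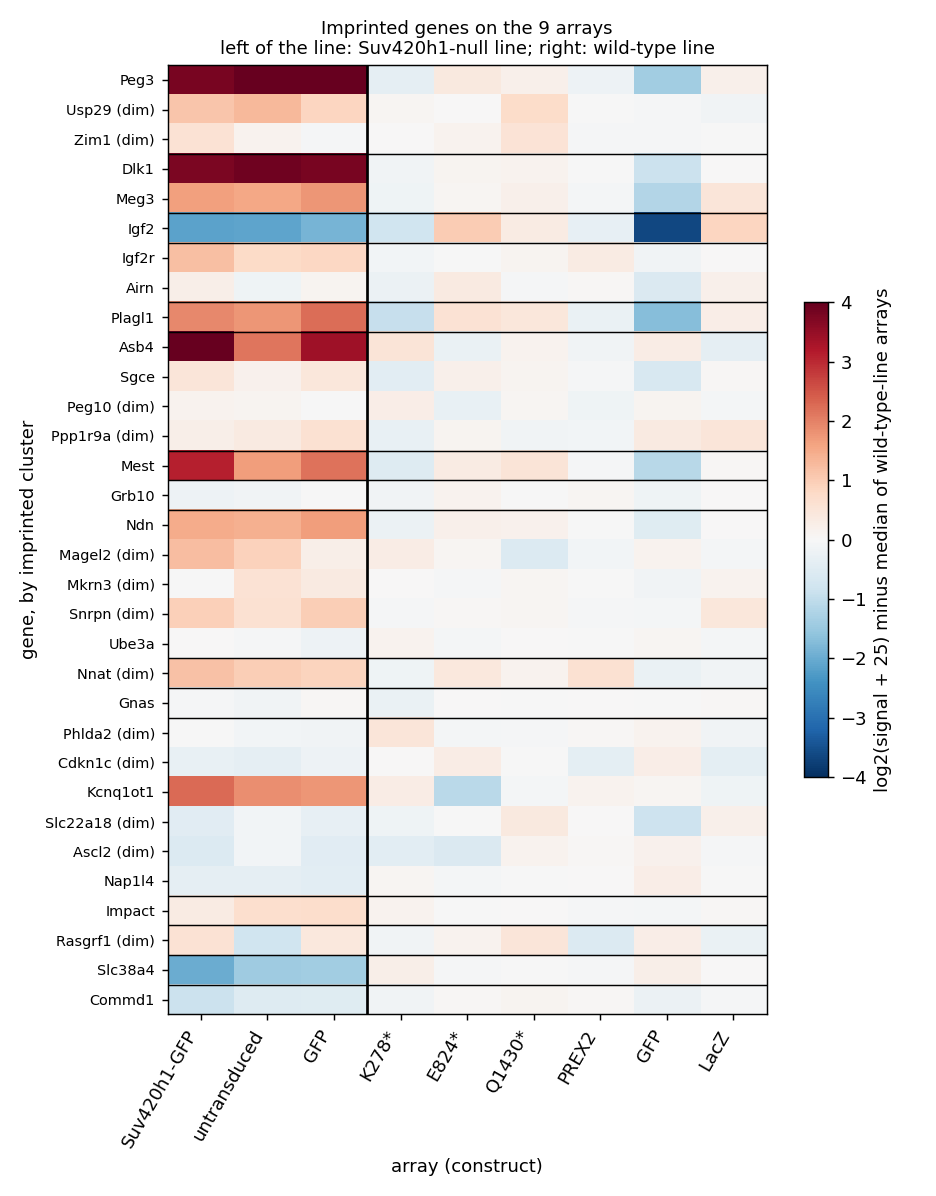
Level of each of 32 imprinted genes on each of the 9 arrays, as log2(signal + 25) minus the median of the 6 wild-type-line arrays (colour scale ends at -4 and 4, and stronger differences are drawn at its ends). Rows are grouped by imprinted cluster, "dim" marks genes with a mean signal under 100, and the red block over the 3 null-line columns covers Peg3, Dlk1, Meg3, Plagl1, Asb4, Mest, Ndn and Kcnq1ot1, while Igf2 and Slc38a4 are blue there.

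Peg3 and Dlk1 had the largest differences of the 19 genes. Peg3, a zinc-finger protein expressed from the paternal copy and known for its part in growth and maternal behaviour, read 5969 and 6127 on the null arrays, against 119.5 and 416.6 on the GFP and LacZ control arrays. The null values lay more than 10-fold above both controls, while the 2 controls themselves differed by more than 3-fold. The log2 difference was 4.59 (SE 0.480, 2 against 2 arrays, adjusted p = 0.0011 in limma), and the other 2 tested probe sets of Peg3 gave 3.85 and 4.23. It was 3.78 without the GFP control array and 5.39 without LacZ. Usp29, which starts beside Peg3 and runs the other way, was dim everywhere, with 51.8 and 32.0 on the null arrays, against 5.15 and 3.33 on the control arrays. The maternally expressed Zim1 read at most 15.6 on any array.

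In the Dlk1-Dio3 cluster genes read from opposite parental copies rose together. Dlk1, a paternally expressed Notch-ligand-like membrane protein that holds back fat-cell differentiation, read 5120 and 4775 on the null arrays, against 163.7 and 325.0 on the GFP and LacZ control arrays (log2 difference 4.27, SE 0.276, adjusted p = 0.000152 in limma). Meg3, a maternally expressed long noncoding RNA, read 20786 and 23994 on the null arrays, against 3079 and 9934 on the control arrays (2.01, SE 0.460, adjusted p = 0.0231 in limma). Neither gene's groups overlapped. Meg3 was read by 11 probe sets, of which 10 were bright enough to test and 9 passed, all higher, with log2 differences of 0.93 to 2.64 over the 10. Rian and Mirg, maternally expressed noncoding RNAs of the same cluster taken from a second list of 49 imprinted genes, also rose. Rian read 8863 and 10130.2 on the null arrays, against 1883 and 3379 on the control arrays (1.90, SE 0.251). Mirg read 990 and 1209 on the null arrays, against 193 and 279.8 on the control arrays (2.12, SE 0.209). The call of Meg3 at its brightest probe set ended with either null array left out (adjusted p = 0.104 without the untransduced array and 0.14 without GFP, in limma), in fits with 1 array in the null group, and with only the compared groups in the fit (0.0735). Its size depended on the control: it was 1.17 without the GFP control array and 2.85 without LacZ.

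Plagl1 and Mest, each the only listed gene of its cluster, both rose. Plagl1 (Zac1), a paternally expressed zinc-finger transcription factor known to slow the cell cycle and to act on other imprinted genes, read 7018 and 9802 on the null arrays, against 611 and 2467 on the GFP and LacZ control arrays. The log2 difference was 2.72 (SE 0.689, adjusted p = 0.0324 in limma). It was 3.71 without LacZ. It was 1.74 without the GFP control array and did not pass then (adjusted p = 0.0857), nor with either null array left out (0.117 and 0.178), with no filter (0.0506) or with only the compared groups in the fit (0.0579). A dimmer probe set of Plagl1 read 179 and 246 on the null arrays, against 43.3 and 54.9 on the control arrays, and passed with a difference of 1.67 (SE 0.274, adjusted p = 0.0068 in limma). Mest, a paternally expressed hydrolase-like protein associated with fat-cell size, read 617 and 880 on the null arrays, against 68.1 and 185 on the control arrays (2.45, SE 0.457, adjusted p = 0.0111 in limma). That call ended with either null array left out (adjusted p = 0.0519 and 0.0937), and the difference was 1.86 without the GFP control array and 3.03 without LacZ. For both genes the 2 null arrays lay above all 6 wild-type-line arrays.

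In the Snrpn-Ndn cluster, Ndn (necdin), a paternally expressed growth suppressor of the MAGE family, read 7796 and 9151 on the null arrays, against 2066 and 2903 on the GFP and LacZ control arrays (1.78, SE 0.212, adjusted p = 0.0019 in limma). All 5 tested Ndn probe sets rose, by 1.74 to 1.86. The other genes of the cluster were at or near background or level. Magel2, a MAGE-family neighbour, read 113 and 61.2 on the null arrays, against 55.6 and 45.2 on the control arrays. The ubiquitin ligase Ube3a, listed as maternally expressed, differed by -0.12 (SE 0.137, adjusted p = 0.563 in limma). The single probe set of Snrpn alone was dim (22.5 and 37.6 on the null arrays, against 4.68 and 17.4 on the control arrays). Brighter probe sets annotated jointly to Snurf and Snrpn, 2 reading frames of 1 transcript, were not counted, and the brightest of them read 692 and 1278 on the null arrays, against 850 and 1210 on the control arrays.

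**Figure D2:**
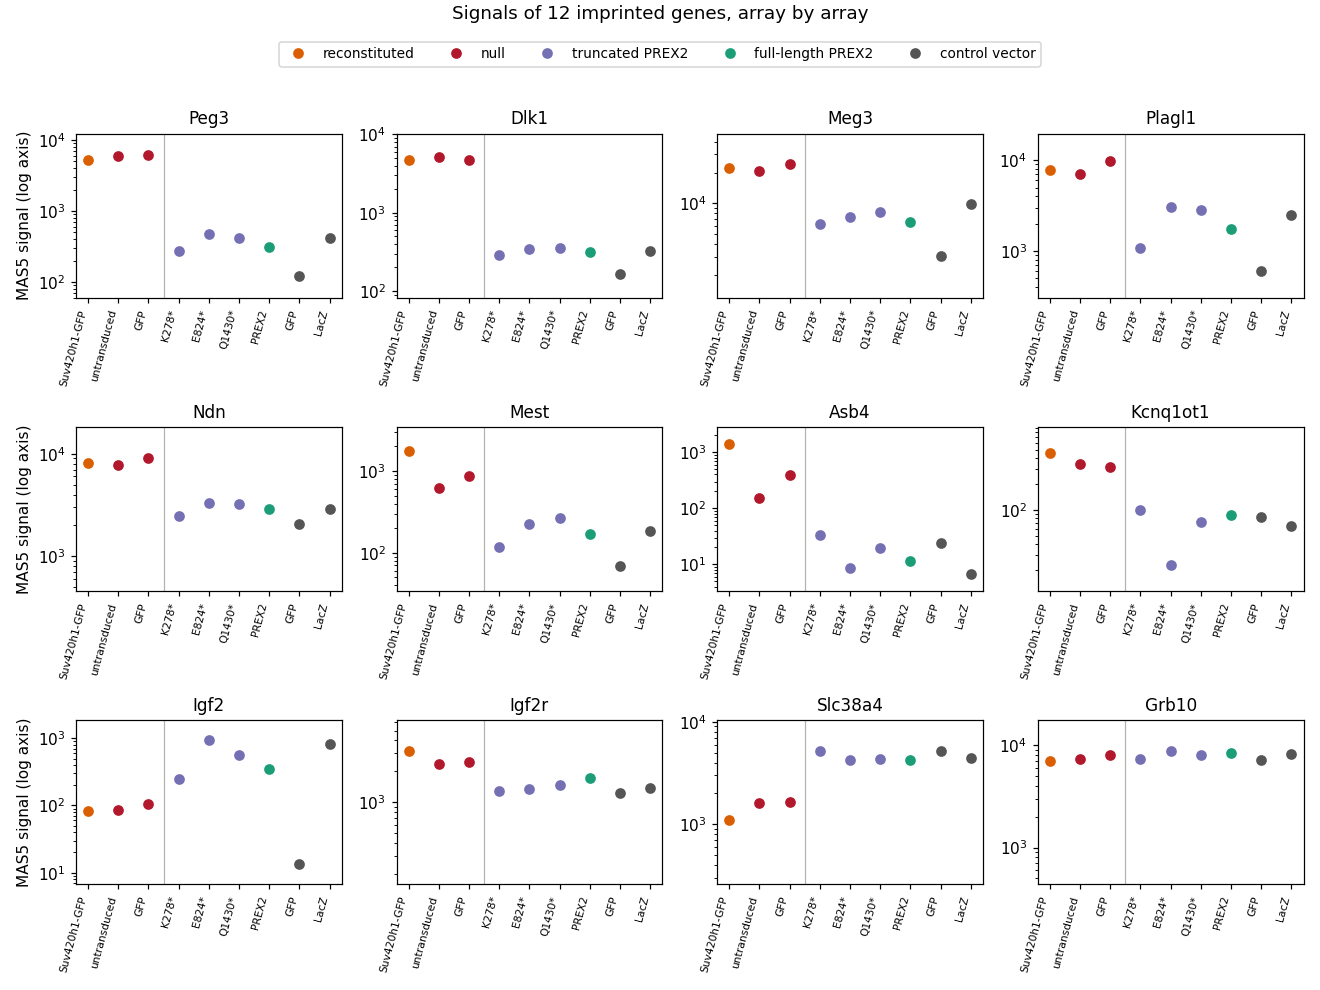
MAS5 signal (log axis) of 12 imprinted genes on each array, null-line arrays left of the grey line and wild-type-line arrays right of it, coloured by group. In Peg3, Dlk1, Meg3, Plagl1, Ndn, Mest, Asb4, Kcnq1ot1 and Igf2r the 3 null-line arrays lie above all 6 wild-type-line arrays, in Slc38a4 below, and in Igf2 the GFP control array lies far below LacZ at 834.8.

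In the Peg10-Sgce cluster, Asb4, a maternally expressed subunit of a ubiquitin ligase, was near background in the wild-type line. It read 154 and 397 on the null arrays, against 24.3 and 6.69 on the GFP and LacZ control arrays. The log2 difference was 2.80 (SE 0.462, adjusted p = 0.00696 in limma), and since the control signals lay under the offset of 25 its size depends on it (3.77 with an offset of 5, 1.63 with 100). Without the null GFP array it was 2.18 and did not pass (adjusted p = 0.0502), and without the untransduced array it was 3.42. Sgce (epsilon-sarcoglycan, paternal copy) read 2416 and 2988 on the null arrays, against 1361 and 2220 on the control arrays, which did not pass (0.62, SE 0.285, adjusted p = 0.171 in limma) except without LacZ (0.97, adjusted p = 0.043). Peg10, which starts beside Sgce and derives from a retrotransposon, read at most 31.5 on any array, and Ppp1r9a at most 55.9. Pon2, a paraoxonase of the same region from the second list, read 2867 and 2906 on the null arrays, against 696 and 673 on the control arrays (2.04, SE 0.156).

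The Kcnq1ot1 cluster had a noncoding RNA that rose beside genes that were dim. Kcnq1ot1 is an antisense RNA of the paternal copy known to silence neighbouring genes on its own chromosome. It read 338 and 317 on the null arrays, against 81.4 and 64.6 on the GFP and LacZ control arrays (1.85, SE 0.416, adjusted p = 0.0215 in limma), and 5 of its 6 probe sets separated the 2 lines. The call at the brightest probe set ended with either null array left out (adjusted p = 0.119 and 0.115) and narrowly without LacZ (0.0515). Of the genes in the domain, the cell-cycle inhibitor Cdkn1c, the placental growth regulator Phlda2 and the transcription factor Ascl2 were dim, at means over the 9 arrays of 10.9, 6.66 and 8.40. Slc22a18, a transporter-like protein, read 92.2 and 76.6 on the null arrays, against 46.4 and 120.7 on the control arrays. Nap1l4, a histone chaperone at the edge of the domain, read 1708 and 1657 on the null arrays, against 2642 and 2171 on the control arrays. That decrease passed (-0.50, SE 0.137, adjusted p = 0.0413 in limma) but not without either null array, without the GFP control array (-0.36, adjusted p = 0.113), with no filter, with no intensity trend or with only the compared groups in the fit.

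The insulin-like growth factor genes did not move together. Igf2, a paternally expressed fetal growth factor, read 84.2 and 106 on the null arrays, against 13.4 and 834.8 on the GFP and LacZ control arrays. The null values lay between the 2 controls, so the groups overlapped and the difference did not pass (-0.60, SE 1.27, adjusted p = 0.778 in limma). Its sign depended on the control: it was -2.84 without the GFP control array, which passed (adjusted p = 0.0262), and 1.64 without LacZ (adjusted p = 0.109). The probe set annotated jointly to H19 and the microRNA gene Mir675, which lies within H19, read at most 46.3 on any array. Igf2r, the maternally expressed receptor that takes up and destroys IGF2, read 2344 and 2475 on the null arrays, against 1241 and 1390 on the control arrays (0.86, SE 0.131, adjusted p = 0.00512 in limma), a call that ended without the null GFP array (adjusted p = 0.0587). Its antisense RNA Airn read 166 and 210 on the null arrays, against 119.6 and 222.8 on the control arrays (0.16, SE 0.311, adjusted p = 0.754 in limma), and its sign turned (-0.23) without the GFP control array. Grb10, an adaptor that restrains insulin and IGF receptors, read 7246 and 7966 on the null arrays, against 7192 and 8097 on the control arrays.

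Other genes of the same signalling pathway were read from a list of 15. Of 12 bright enough to test, 4 rose, 2 fell and 6 did not pass, where 10.2% of all tested genes rose and 10% fell. Among the 6 that passed, the 4 of largest change were the binding proteins Igfbp6 (-2.38, SE 0.12) and Igfbp7 (-1.19, SE 0.102), which fell, and the receptor substrate Irs2 (1.41, SE 0.351) and the insulin receptor Insr (1.04, SE 0.246), which rose. Igfbp6 read 1514 and 1836 on the null arrays, against 8821 and 8790.2 on the control arrays.

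Among the remaining clusters, Impact, a paternally expressed inhibitor of the amino-acid sensor GCN2, read 5239 and 5344 on the null arrays, against 3102 and 3375 on the GFP and LacZ control arrays (0.71, SE 0.114, adjusted p = 0.0064 in limma). This call ended with either null array left out (adjusted p = 0.0553 and 0.0668), and the difference was 1.31 as a mean over its tested probe sets. Slc38a4, an amino-acid transporter expressed from the paternal copy, went the other way and read 1613 and 1663 on the null arrays, against 5156 and 4458 on the control arrays (-1.54, SE 0.143, adjusted p = 0.000723 in limma). Both of its probe sets fell and no array of either line overlapped. Commd1, a regulator of copper balance and of NF-kappaB, read 3952 and 4087 on the null arrays, against 4846 and 5482 on the control arrays (-0.36, SE 0.128, adjusted p = 0.0935 in limma). Its second probe set read 2219 and 2228 on the null arrays, against 2879 and 3002 on the control arrays, and passed (-0.40). Gnas, the stimulatory G-protein alpha subunit, differed by -0.07 (SE 0.13), and Nnat and Rasgrf1 were dim, with 45.9 and 41.8 for Nnat on the null arrays, against 4.84 and 8.22 on the control arrays.

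Probe sets of 1 gene mostly moved alike. Of 47 tested probe sets of imprinted genes 30 rose and 4 fell, against 10.7% and 8.94% of all 19090. Of the 30, 9 read Meg3 and 5 read Ndn, so they are not independent of each other. In 9 of 15 genes with at least 2 tested probe sets, every one of them passed in the same direction. The exceptions included dim second probe sets of genes that were level at the bright one. A Gnas probe set read 214 and 203 on the null arrays, against 120.1 and 81.9 on the control arrays (0.91, SE 0.267, adjusted p = 0.0522 in limma). A Grb10 probe set read 172 and 282 on the null arrays, against 126 and 137 on the control arrays (0.66, SE 0.249, adjusted p = 0.108 in limma). Both genes produce several imprinted isoforms, and the isoforms behind each probe set are not known here. Averaged over its tested probe sets, each gene passed in all null-line against all wild-type-line arrays (0.34, adjusted p = 0.019 for Grb10 and 0.57, adjusted p = 0.00148 for Gnas, in limma).

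**Figure D3:**
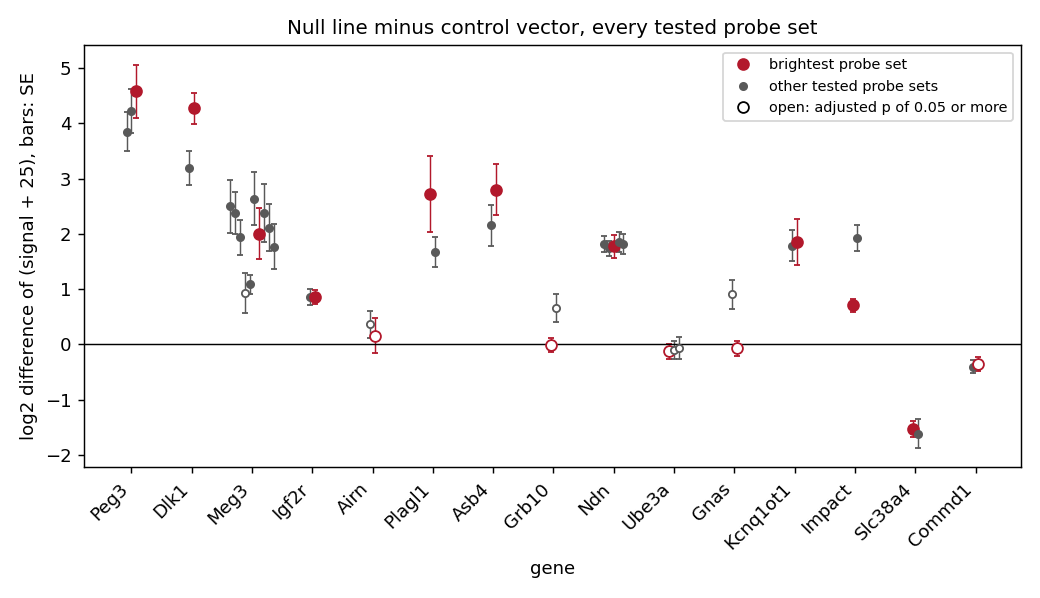
Log2 difference of signal + 25, null line minus control vector, for every tested probe set of the 15 genes that have at least 2, with standard errors (2 against 2 arrays). The 5 Ndn probe sets lie between 1.74 and 1.86 and the 10 Meg3 probe sets between 0.93 and 2.64, while Grb10 and Gnas have 1 probe set near 0 and 1 above it.

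The wider comparison of all 3 null-line arrays, reconstituted included, with all 6 wild-type-line arrays uses the spread over every construct. Of the 19 genes 11 rose and 3 fell, where 43.9% of all tested genes passed, 20.7% higher and 23.2% lower (43.4% of probe sets, 22.1% and 21.3%). With no filter 17 of 32 passed, with 21.4% of all probe sets called; Usp29, Snrpn, Magel2 and Nnat were among them. Sgce (0.50, SE 0.181, adjusted p = 0.046 in limma, 3 against 6 arrays) and Commd1 (-0.58, SE 0.106, adjusted p = 0.0013 in limma) were called here in addition. Of all 19, 10 genes had every null-line array above every wild-type-line array and 3 had every one below, against 20.3% and 21.1% of all tested genes. The 10 were Peg3, Dlk1, Meg3, Igf2r, Plagl1, Asb4, Mest, Ndn, Kcnq1ot1 and Impact, and the 3 were Slc38a4, Nap1l4 and Commd1. With 3 against 6 arrays the differences were 4.12 for Peg3 (SE 0.325), 3.95 for Dlk1 (SE 0.198), 3.53 for Asb4 (SE 0.506) and -1.66 for Slc38a4 (SE 0.134). Igf2 did not pass (-1.61, SE 0.833, adjusted p = 0.142 in limma), and did without the GFP array (-2.25, adjusted p = 0.000328).

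**Figure D4:**
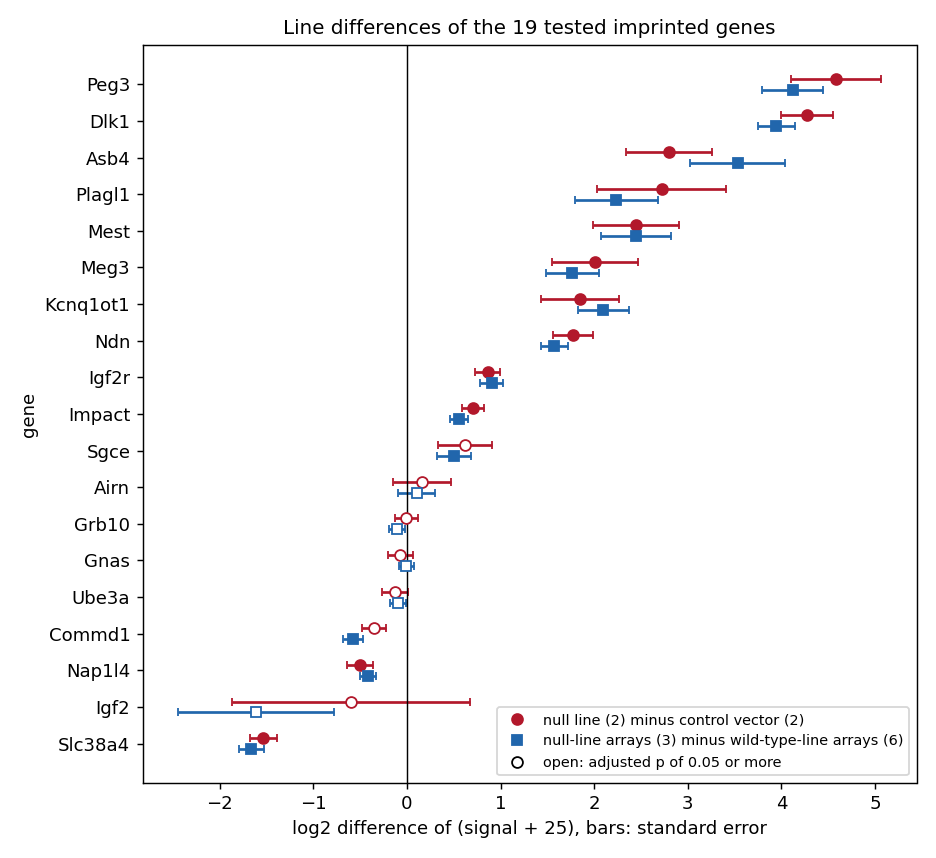
Log2 differences of signal + 25 with standard errors for the 19 tested genes, null line minus control vector (circles, 2 against 2 arrays) and all null-line minus all wild-type-line arrays (squares, 3 against 6). Filled symbols passed. Peg3 and Dlk1 lie near 4 in both, Slc38a4 near -1.6, and Igf2 has the widest bars.

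Of 11 tested genes listed as paternally expressed, 7 rose in the null line against control vector and 1 fell, with a median log2 difference of 1.78. Of 6 genes listed as maternally expressed, among them Ube3a, Nap1l4 and Commd1, 3 rose and 1 fell, with a median of 0.37. The listed copy may not hold in every tissue, and the copy read in these fibroblasts was not measured. Of all tested genes 10.2% rose and 10% fell. The difference between these sets was not tested.

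Restoring Suv420h1 asks whether these differences move back. For Peg3, Dlk1 and Meg3 the reconstituted array lay near the null arrays and far from the wild-type line. The reconstituted array read 5263 for Peg3, against 5969 and 6127 on the null arrays, 4696 for Dlk1 against 5120 and 4775, and 22070.4 for Meg3 against 20786 and 23994. Their log2 differences were -0.20 (SE 0.588), -0.07 (SE 0.338) and -0.02 (SE 0.563). None of the 19 genes passed (1 against 2 arrays), and 0 of 19090 probe sets did, a share of 0%, which does not show that nothing differed. At an unadjusted p under 0.05 the genes were Asb4, Slc38a4, Impact, Igf2r and Commd1, 5 of 19, where 3.31% of all tested genes were at that level. Of the 19, 8 lay above both null arrays, 7 below both and 4 between them. Of all tested genes 39.1% lay above both and 33.5% below both. Asb4 was among the 19 only through its value on the reconstituted array, so its place in these counts is not independent of that array.

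Asb4 and Mest read higher on the reconstituted array than on both null arrays, farther from the wild-type line. Asb4 read 1418 on the reconstituted array, against 154 and 397 on the null arrays, and its second probe set read 842 against 178 and 301. Mest read 1738, against 617 and 880. The log2 differences were 2.39 for Asb4 (SE 0.566, unadjusted p = 0.0034, adjusted p = 1 in limma) and 1.21 for Mest (SE 0.56, unadjusted p = 0.0655). These were the 2 of 19 genes at which the reconstituted array exceeded the higher null array by over 1.5 times on the signal + 25 scale, a limit set after seeing the values, against 0.894% of all tested genes; 0 of 19 lay below the lower null array by as much, against 1.65%. In a fit of these 3 arrays alone both passed (adjusted p = 0.0034 for Asb4 and 0.00687 for Mest in limma), as did 1.22% of all probe sets, but there the spread comes from the 2 null arrays only. Slc38a4, lower in the null line, was lower still on the reconstituted array, at 1094 against 1613 and 1663. Impact read 4116, against 5239 and 5344, nearer the wild-type line. Plagl1 read 7821 on the reconstituted array, between 7018 and 9802 on the null arrays. Ndn read 8061, between 7796 and 9151. These 2 growth-restraining genes thus lay within the range of the null arrays. Kcnq1ot1 read 465, against 338 and 317, and Igf2r read 3168, against 2344 and 2475. Nap1l4 read 1720, against 1708 and 1657. Kcnq1ot1 and Igf2r lay above both null arrays, and Nap1l4 just above them.

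Within the wild-type line the imprinted genes varied from array to array, and the GFP control array was lowest for most. It was the lowest of the 6 arrays for 13 of 19 genes (68.4%), where it was lowest for 34.8% of all tested genes, and the highest for 1 of 19, Nap1l4, where it was highest for 30.5%. Igf2 spanned 13.4 on GFP, 245.6 on K278*, 353.0 with full-length PREX2, 571 on Q1430*, 835 on LacZ and 937 on E824*. Plagl1 followed a similar order, from 611 on GFP and 1072 on K278* to 3062 on E824*. Peg3, Mest, Meg3 and Dlk1 also had their lowest value on GFP and the next lowest on K278*. Over the 19 genes, 7 spanned more than 2-fold on the signal + 25 scale within the wild-type line. The share over all tested genes is not known here, so this count is not read as a trait of imprinted genes. On the GFP array the summed fibroblast markers were 184973, against 257198 on LacZ, and the neural markers 880 against 2096; their part in the imprinted values was not tested, and in bulk RNA fewer cells with a transcript and less of it per cell cannot be told apart.

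Truncated or full-length PREX2 gave no call among the imprinted genes. Of 19090 probe sets 1 passed for truncated PREX2 against control vector (0.00524%, or 0.00983% of genes) and 0 for full-length PREX2 against control vector or truncated against full-length PREX2. No imprinted gene had an unadjusted p under 0.05 for truncated PREX2 (2.73% of all tested genes did, and 1.12% for full-length PREX2), and only Igf2r did for full-length PREX2 (0.38, SE 0.161, unadjusted p = 0.0498 and adjusted p = 1 in limma). Peg3 read 273, 475 and 412 with K278*, E824* and Q1430* and 308 with full-length PREX2, against 119.5 and 416.6 on the GFP and LacZ arrays. Every PREX2 value of Peg3 lay above the GFP control, and 3 of 4 lay below LacZ. The log2 difference of truncated PREX2 was 0.67 for Peg3 (SE 0.438), 0.76 for Plagl1 (SE 0.629) and 1.56 for Igf2 (SE 1.16), each 3 against 2 arrays. Dlk1 read 288, 346 and 359 with K278*, E824* and Q1430* and 317 with full-length PREX2, against 164 and 325.0 on the GFP and LacZ arrays. Meg3 read 6238, 7440 and 8166 with the truncations and 6663 with full-length PREX2, against 3079 and 9934. Mest read 117, 228 and 263 with the truncations and 169.8 with full-length PREX2, against 68.1 and 185. In these 3 genes every PREX2 array lay above GFP. Ndn read 2452, 3303 and 3259 with the truncations and 2869 with full-length PREX2, against 2066 and 2903. Plagl1 read 1072, 3062 and 2830 with the truncations and 1728 with full-length PREX2, against 611 and 2467. Igf2r read 1278, 1349 and 1471 with the truncations and 1713 with full-length PREX2, against 1241 and 1390. Full-length PREX2 was the highest wild-type-line array for Igf2r. Asb4 read 33.0, 8.74 and 19.2 with the truncations and 11.7 with full-length PREX2, against 24.3 and 6.69. Kcnq1ot1 read 98.9, 22.5 and 71.2 with the truncations and 86.7 with full-length PREX2, against 81.4 and 64.6. Both were dim throughout the wild-type line. Impact read 3636, 3250 and 3325 with the truncations and 3181 with full-length PREX2, against 3102 and 3375. Slc38a4 read 5208, 4246 and 4352 with the truncations and 4248 with full-length PREX2, against 5156 and 4458. Nap1l4 read 2334, 2108 and 2163 with the truncations and 2240 with full-length PREX2, against 2642 and 2171. These last 3 genes varied less than 1.5-fold within the wild-type line. Without LacZ, Meg3 passed (1.23, SE 0.169, adjusted p = 0.0406 in limma), in a fit with GFP as the only control.

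Of 26 tested genes known to set, keep or read imprints, 0 rose and 1 fell in the null line against control vector, where 20.3% of all tested genes passed. With all null-line against all wild-type-line arrays 6 rose and 1 fell, where 43.9% of all tested genes passed. The gene that fell against control vector was Trim28, the corepressor through which KRAB zinc-finger proteins such as ZFP57 keep imprints methylated, with 3767 and 3702 on the null arrays, against 5239 and 5312 on the GFP and LacZ control arrays (-0.50, SE 0.11, adjusted p = 0.0209 in limma). A second list of 49 imprinted genes had 25 tested members, of which 7 rose and 2 fell. Pon2, Mirg, Rian and Mcts2 changed most, and Mcts2 fell (-1.87, SE 0.332), with 505 and 358 on the null arrays, against 2332 and 1118 on the control arrays.

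Genes next to the clusters that no imprinted list holds were read as a local background. Of 91 such genes, the 3 nearest tested genes on each side by RefSeq order, 10 rose and 9 fell (20.9%, against 20.3% of all tested genes), with a median of -0.09. None of the genes beside Mest, Peg3, Nnat, Commd1 and the Snrpn-Ndn cluster passed. The largest change was in Ctsh, a lysosomal protease beside Rasgrf1 (3.88, SE 0.262), with means of 3602 in the null line and 233 in control-vector cells. Dync1i1, a dynein intermediate chain beside the Peg10-Sgce cluster, rose (3.58, SE 0.34), with means of 585 in the null line and 27.7 in control-vector cells. Ctsz, another lysosomal protease, beside Gnas, fell (-3.09, SE 0.258), with means of 473 in the null line and 4110.3 in control-vector cells. Slc38a1, an amino-acid transporter gene near Slc38a4, fell (-2.03, SE 0.33), as did Slc38a2 between them, named after its values were seen (-0.43, SE 0.101).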

How the data were processed

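Each of the 9 samples is 1 Affymetrix array, prepared by 3' in vitro transcription per the labels' protocols. The authors deposited linear intensity values, MAS5 signals per the submitters' processing notes; the version and settings of MAS5 are not given here. The mean after trimming 2% at each end was 500 on every array, and median signals were 56.4 to 68.9. Of 45101 probe sets 64 were controls and were left out; the platform annotation gives a single symbol to 34945, more than one to 932 and no symbol to 9160. Only single-symbol probe sets name a gene. 

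Signals were analysed as log2(signal + 25), so fold changes of dim genes are understated. Probe sets with a mean of at least 100 entered 1 limma fit (version 3.58.1, R 4.3.3) over all 5 groups, which leaves 4 residual degrees of freedom, with a trend on intensity; the comparison of lines used 2 means. P-values are two-sided, adjusted by Benjamini-Hochberg over 19090 probe sets, threshold 0.05; a lone array is taken to vary as the replicated groups do. The fit was tested on simulated data. Alternatives were offsets of 5 and 100, a minimum of 200 or none, quantile normalization, a fit without the trend, the compared groups alone, the mean over probe sets, and each array left out. All listed genes are accounted for; from every other list at most 4 passing genes, those of largest change, are named. Slc38a2 and second probe sets were picked with their values in view. The genes and lists were chosen with earlier results of these data known.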

Additional observations from a re-analysis of the deposited data

How the results depend on the processing

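Of the 12 imprinted genes called in the null line against control vector, Peg3, Dlk1, Ndn and Slc38a4 kept their call under all 12 alternatives, and the other 8 lost it under at least 1. With 1 null or control array left out that group is a single array. Without 1 null array fewer imprinted genes passed, and so did a smaller share of all probe sets. Counts are therefore not given for those fits. With both null and both control arrays kept, the count of passing imprinted genes was 9 to 12, where 7.55% to 21.2% of all that was tested passed. For all null-line against all wild-type-line arrays it was 13 to 15 with 1 array left out, where 33.9% to 50.5% of all probe sets passed. Over the mean of each gene's probe sets it was 16, with Grb10 and Gnas then called, where 45.7% of all that was tested passed. For the reconstituted against the null line it was 0, and 2 with only the compared groups in the fit, where 1.22% of all probe sets passed. For truncated PREX2 against control vector it was 0 wherever both control arrays were kept. Among genes that did not pass, the difference changed sign for 4. Grb10 gave 0.056 after quantile normalization, 0.33 over all its probe sets and -0.092 to 0.079 with 1 array left out. Gnas gave 0.016 after quantile normalization, 0.42 over all its probe sets and -0.17 to 0.027 with 1 array left out. With 1 array left out Airn ranged from -0.23 to 0.55, negative without the wild-type GFP array, and Igf2 from -2.84 to 1.64, positive without LacZ. The cause was not tested. No paired analysis was possible because the labels give the arrays no replicate numbers. Signals near background limit Usp29, Zim1, Peg10, Phlda2, Cdkn1c and Ascl2 to the statement that they were dim.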
